A study of Mus musculus with 96 samples.

Results

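In the livers of male C57BL/6N mice fed a high-fat diet (HFD), 4 of 10 growth hormone and STAT5 dependent genes were lower than in mice on a control chow diet (CD) over the 6 sampled weeks. These were the male-predominant steroid enzyme gene Hsd3b5, the organic anion transporter gene Slco1a1, the growth factor gene Igf1 and Igfals. The last encodes a subunit of the complex that holds IGF1 in blood. The mean Hsd3b5 level over 24 mice per diet was 99.5 FPKM on CD and 39.3 FPKM on HFD, where FPKM is the number of fragments scaled to transcript length and to the mapped fragments of the library. Igf1 stood at 70.2 and 59.3 FPKM, Igfals at 65.1 and 56.4 FPKM, and Slco1a1 at 68.7 and 45.5 FPKM. The receptor gene Ghr did not pass the test, and the transcription factor gene Stat5b was slightly higher on HFD by a margin that median ratio scaling removed.

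The 10 members were named by symbol: Ghr, Stat5b, Igf1, Igfals, Socs2, Cish, Elovl3, Hsd3b5, Slco1a1 and Bcl6. They are 10 of 21990 genes listed in the expression table, of which 20155 had values, and each of them was found there. All 10 also passed the filter on low values in every week, for which a gene had to reach 1 FPKM in 4 or more of that week's 8 libraries. The study fed mice that were 4 weeks old when purchased. The CD was LabDiet's 5001 with 13.5% fat, and the HFD was the 60% fat diet D12492 from Research Diets. Liver and islets were taken from the same animals after 4, 8, 12, 16, 20 and 24 weeks. Each diet and week had 4 mice, every week used other mice, and no mouse carried a transgene or a drug treatment. The 48 liver libraries, 24 per diet, are described here. The diets differ in maker and in ingredients other than fat, only males were used, and neither the time of day nor the fasting state at liver collection was given in the sources used here.

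Growth hormone is released from the pituitary in pulses that are more sharply separated in male rodents than in females. Its receptor on hepatocytes activates the kinase JAK2, which phosphorylates STAT5b. The phosphorylated factor enters the nucleus and drives Igf1, Igfals, the feedback inhibitors Socs2 and Cish, and in males a set of sex-biased genes that includes Hsd3b5, Slco1a1 and Elovl3. It represses Bcl6, itself a repressor that binds many of the same sites.

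The summed FPKM of the liver libraries ranged from 560016 to 672369, and 9347 to 10570 genes reached 1 FPKM in a library. Read counts are not part of the table, the depth behind each value is therefore unknown, and the number of mice sets the precision. No pair of liver libraries held identical values. The samples are bulk liver, in which fewer cells of a type and less RNA per cell cannot be told apart. The 10 hepatocyte markers summed to 41700 to 78700 FPKM on CD (median 59700) and to 34900 to 66500 FPKM on HFD (median 57900), and 5 of the 10 were lower on HFD and none higher, with 7 lower under median ratio scaling. Alb, the serum albumin gene and the largest part of that sum, did not pass the test (mean log2 difference -0.07, adjusted p = 0.52). The 12 macrophage markers summed to 48.1 to 171 FPKM on CD (median 95.9) and to 65.1 to 309 FPKM on HFD (median 137), and 9 of the 12 were higher on HFD, none lower. Among these, Gpnmb and Itgax had CD means of 0.0996 and 0.149 FPKM. They passed the filter on low values only through HFD mice and so could enter only as higher. The 7 stellate cell markers had medians of 61.8 and 98.8 FPKM, with ranges of 28.8 to 92.9 on CD and 51.3 to 169 on HFD, and 6 of the 7 were higher. Of 6 endothelial markers 1 was higher, as was 1 of 3 tested cholangiocyte markers, and the 1 tested lymphocyte marker did not pass. Of all genes tested over the weeks, 35.8% were higher and 6.78% lower, so the endothelial and cholangiocyte counts are not above that share. Under median ratio scaling 7 of 11 tested macrophage markers and 4 of 7 stellate cell markers were higher. Of 4 tested cholangiocyte markers none was higher and 1 was lower under that scaling. No marker of these lists was at 0 in every library. The part of these shifts in the members' differences was not tested.

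Each diet effect is the difference HFD minus CD in log2(FPKM + 1), a scale that understates changes of low genes, with a standard error (SE) and a Benjamini-Hochberg adjusted p over all genes tested, both from limma. A gene was called at an adjusted p under 0.05. Over the mean of the 6 weeks, 4 of the 10 members were called lower, where 6.78% of all 10879 genes tested were, and 1 of 10 was called higher, where 35.8% were. The median difference of the members was -0.24, against 0.08 for all genes. Scaling each library by the median of its ratios to a common reference moved the median of all genes from 0.077 to -0.021 and the share of called genes that were higher from 84.1% to 45.1%. Under that scaling the same 4 members stayed lower and none was higher.

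Hsd3b5 had the largest mean difference of the members, -2.7 (SE 0.444, adjusted p = 7.2e-06, limma, 24 mice per diet). Slco1a1 followed at -0.7 (SE 0.247, adjusted p = 0.021), then Igf1 at -0.24 (SE 0.047, adjusted p = 7.3e-05) and Igfals at -0.23 (SE 0.077, adjusted p = 0.014). Each of these 4 genes was lower on HFD in 5 of the 6 weeks. Stat5b gave 0.13 (SE 0.051, adjusted p = 0.041) and was lower in 2 of the 6 weeks. The other 5 members did not pass the test, with mean differences of 0.04 for Ghr (adjusted p = 0.46), -0.34 for Socs2 (0.18), 0.23 for Cish (0.59), -0.44 for Elovl3 (0.21) and 0.25 for Bcl6 (0.44).

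**Figure D1:**
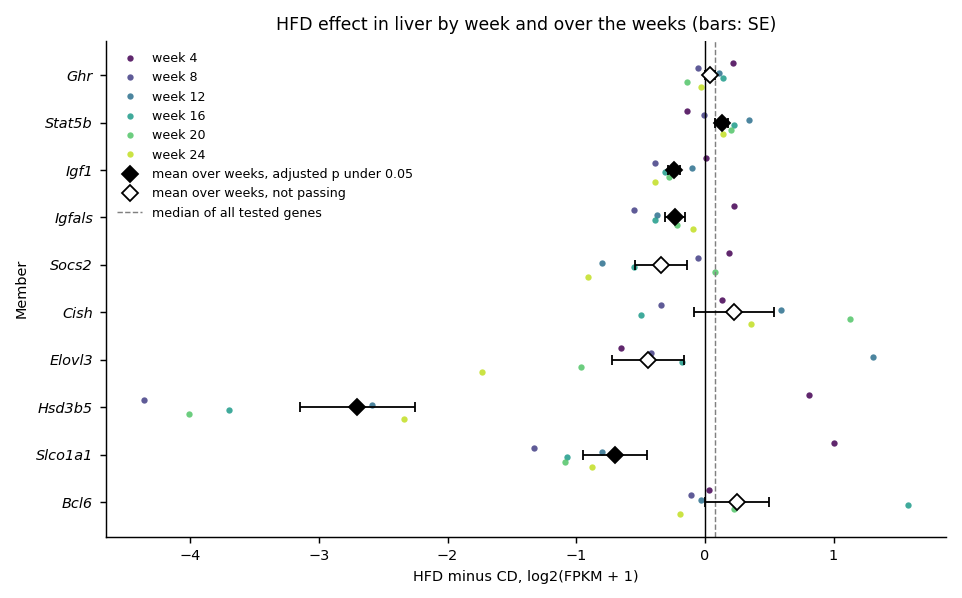
HFD minus CD difference of each member in log2(FPKM + 1), with a small point for each week (4 mice per diet), a diamond with its standard error for the mean over the 6 weeks, filled where called, and a dashed line at the median of all genes. Hsd3b5 lies at 0.81 in week 4 and between -4.36 and -2.34 in the later weeks, and most other estimates lie near 0.

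With 4 mice per diet, a single week called few members. No member was called at week 4 by limma, where 0.0405% of all genes were higher and 0.0101% lower, and Hsd3b5 and Slco1a1 were higher at an unadjusted p under 0.05. At week 8, 1 member was lower, Igf1, against 1.33% of genes lower and 6.17% higher. At week 12, 1 member was lower, Igfals, against 1.22% lower and 9.42% higher. No member was called at week 16 by limma, where 6.74% of genes were higher and 0.682% lower. Hsd3b5 and Igf1 were lower and Bcl6 higher at an unadjusted p under 0.05 in that week. Hsd3b5 was the 1 member called at week 20, lower, against 0.746% of genes lower and 1.73% higher. At week 24 limma called no member, with 0.65% of genes higher and 0.187% lower, and Hsd3b5, Igf1 and Elovl3 were lower at an unadjusted p under 0.05. At that cut 4 members were lower at week 8 and 4 at week 20, and at week 12 2 were lower and 1 higher. Whether the diet effect differed between the weeks was tested with an F test over the 48 libraries, which called 1.46% of genes and 0 of the 10 members, with 1 member, Hsd3b5, at an unadjusted p under 0.05. The share of all genes at an unadjusted p under 0.05 was not computed for any of these tests. The members at that cut are therefore not read as a result.

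Ghr, the receptor of the hormone, lies on the minus strand of chromosome 15 (3317755 to 3583352, GRCm38, Entrez gene 14600) and was the most abundant member in CD liver by FPKM, a scale that corrects for transcript length. Its levels ran from 104.91 to 202 FPKM in the 24 CD mice (median 161) and from 93.4 to 204 FPKM in the 24 HFD mice (median 172). The diets overlapped in every week. In CD mice alone, however, Ghr differed between weeks (F test of limma, F = 9.85, adjusted p = 7.4e-05). Its CD mean was 136 ± 14.4 FPKM after 4 weeks (SD, n = 4), 190.6 ± 12.2 after 8, 169.3 ± 10.8 after 12, 177.5 ± 15.8 after 16, 153.6 ± 16.9 after 20 and 126.8 ± 16 after 24. Every CD mouse of week 8 stood above every CD mouse of weeks 4 and 24. Of the 10 members, 2 were called over the weeks in CD liver, Ghr and Stat5b, where 55% of all genes were, and the count was 4 without CD106 or without HFD418. Week of feeding, age and collection or library batch cannot be told apart in this comparison.

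Stat5b, the signal transducer itself, lies on chromosome 11 (100780731 to 100859004, minus strand, Entrez gene 20851) and was far less abundant than Ghr. Its CD mean moved from 12.21 FPKM at week 4 to 8.718 at week 12 and 12.02 at week 24 (F = 4.47, adjusted p = 0.0078, limma). At week 12 the CD mice had 9.54, 9.54, 7.39 and 8.4 FPKM and the HFD mice 11, 12.2, 11.8 and 10 FPKM. All 4 HFD mice stood above all 4 CD mice in that week, with a difference of 0.34 (SE 0.102, adjusted p = 0.061, limma) that was past the threshold only when CD304 was left out (adjusted p = 0.037). In the other weeks the diets overlapped. The higher mean over the weeks was no longer called under median ratio scaling (0.02, adjusted p = 0.78), nor without any 1 of 22 of the 48 mice, with values of 0.11 to 0.15 over all mice left out in turn.

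Igf1, the growth factor that the liver secretes under growth hormone, lies on the plus strand of chromosome 10 (87858265 to 87937047, Entrez gene 16000). At week 4 the CD mice had 72.8, 48, 53.8 and 67.3 FPKM and the HFD mice 51.4, 70.1, 62.4 and 58.3 FPKM. At week 8 the CD mice had 79.2, 74.3, 87.8 and 76.6 FPKM and the HFD mice 57.1, 57.9, 69.8 and 56.8 FPKM. The diets were interleaved at week 4 and separate at week 8, with every HFD mouse below every CD mouse. The week 8 difference was -0.39 (SE 0.09, adjusted p = 0.036, limma, n = 4 per diet), and it was called only with all 8 mice or without HFD213. Leaving out CD203, CD205, CD207, CD208, HFD211, HFD212 or HFD217 raised the adjusted p to between 0.052 and 0.1.

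Separation of the diets in Igf1 returned in weeks 16 and 24 without a call in either. At week 16 the CD mice had 70.4, 77.5, 73.8 and 69.9 FPKM against 49.5, 61.5, 55.2 and 69.8 FPKM on HFD (difference -0.31, adjusted p = 0.13, limma). At week 24 the values were 65.7, 71.6, 64.9 and 65 FPKM on CD and 54.9, 60.4, 51.2 and 39.3 FPKM on HFD (-0.39, adjusted p = 0.2). In both weeks all 4 HFD mice lay below all 4 CD mice, by a narrow gap at week 16. At week 12 the CD mice spanned 64.3 to 73.1 FPKM and the HFD mice 58.2 to 71.6 FPKM, and at week 20 they spanned 66 to 76.5 and 53.3 to 68.9 FPKM, so that the diets overlapped in those weeks. The mean Igf1 difference over the weeks stayed called without any 1 mouse, between -0.26 and -0.22.

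Igfals encodes the acid-labile subunit that holds IGF1 in a large complex with its binding protein in blood. The gene lies on the plus strand of chromosome 17 (24877652 to 24882011, Entrez gene 16005). At week 8 the CD mice had 66, 64.8, 80.5 and 64.5 FPKM, and the HFD mice 34.9, 34.1, 56.6 and 70.4 FPKM. At week 12 the CD mice had 73.3, 65.7, 74.2 and 66.8 FPKM, and the HFD mice 58.1, 57.3, 49.5 and 51.7 FPKM. The HFD values were all below the CD values at week 12, while at week 8 HFD217 reached the CD range. Limma called the week 12 difference of -0.37 (SE 0.089, adjusted p = 0.033), but not without CD306, CD307, CD308, HFD315, HFD316 or HFD318, where the adjusted p rose to at most 0.11. At week 16 the CD mice spanned 36.7 to 64.9 FPKM and the HFD mice 28.1 to 52.4 FPKM, the lowest level of the gene in each diet, and in weeks 4, 20 and 24 the diets overlapped too. The mean over the weeks stayed called without any 1 mouse (-0.26 to -0.21).

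The STAT5 recognition sequence TTCNNNGAA, which reads the same on both strands, was looked for in the 250 bases before each start that RefSeq gives for the members (GRCm38.p6). Of the members, 8 had 13 promoters in the sequence table, and 4 of these promoters, in Igfals and Bcl6, held the motif, against 7.02% of all 32851 promoters and 8.13% of all 27025 genes. The Igfals stretches are shown because this STAT5 target was lower on HFD, with the motif in capitals. The first (chr17:24877594-24877651, plus strand) holds TTCTCAGAA at 236 to 228 bases before its start, and the second (chr17:24877981-24878214, plus strand) holds TTCCTAGAA at 58 to 50 bases before its own. Both stretches leave out exonic bases and fall in an intron of GENCODE's longer Igfals gene model.
Igfals promoter 1: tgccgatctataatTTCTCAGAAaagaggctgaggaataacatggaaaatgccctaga
Igfals promoter 2: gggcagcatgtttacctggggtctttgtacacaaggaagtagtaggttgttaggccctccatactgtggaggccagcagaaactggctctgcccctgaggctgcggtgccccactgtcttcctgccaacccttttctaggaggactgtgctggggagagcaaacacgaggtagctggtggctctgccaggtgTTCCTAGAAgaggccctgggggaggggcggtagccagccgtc
A match describes the letters of the window and not binding, and the windows of Ghr, Stat5b, Igf1, Cish, Hsd3b5 and Slco1a1 hold no such letters. Of these, only the windows of Hsd3b5 and Slco1a1 lie wholly upstream of the gene. All 250 bases of the Igf1 and Cish windows are exonic in GENCODE's longer gene models, and the bases before those models were not searched. The Stat5b windows fall within the gene as the expression table places it. Socs2 and Elovl3 were not looked at.

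Hsd3b5 encodes a 3-ketosteroid reductase of the 3-beta-hydroxysteroid dehydrogenase family that is made in male mouse liver. It lies on the minus strand of chromosome 3 (98618636 to 98645534, Entrez gene 15496) among similar family members, so reads shared with them make its level less certain. At week 4 the CD mice had 90.2, 83.7, 65.4 and 78.5 FPKM and the HFD mice 145, 173, 110.45 and 134 FPKM. All 4 HFD mice were above all 4 CD mice then, with a difference of 0.81 (SE 0.154, adjusted p = 0.085, limma, n = 4 per diet).

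From week 8 the order was turned round. At week 8 the CD mice had 167, 229, 219 and 258 FPKM, the highest levels of the gene in the series, and the HFD mice had 5.38, 6.48, 1.09 and 123 FPKM. At week 16 the values were 37.6, 106.6, 95.1 and 74.8 FPKM on CD and 30.6, 0.69, 10.2 and 0.78 FPKM on HFD. At week 20 they were 126, 123, 102 and 53.8 FPKM on CD and 0.6, 10.6, 3.38 and 15.3 FPKM on HFD. In these 3 weeks every HFD mouse was below every CD mouse. The differences were -4.36 at week 8 (SE 1.1, adjusted p = 0.054, limma), -3.7 at week 16 (SE 1.006, adjusted p = 0.079) and -4.01 at week 20 (SE 0.731, adjusted p = 0.041). The ratio of the HFD to the CD mean was 0.156, 0.134 and 0.0738. The week 20 call was lost without CD501, CD502, CD505, CD507, HFD516 or HFD517 (adjusted p 0.075 to 0.13) and with a pseudocount of 0.1 (adjusted p = 0.067), while week 16 was called without HFD411 (-4.52, adjusted p = 0.0099). HFD411 was the HFD mouse of week 16 nearest the CD mice, so the larger difference without it follows from its value and supports nothing.

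In weeks 12 and 24 single mice crossed over. At week 12 the CD mice had 134, 54.7, 64.3 and 7.5 FPKM, and the HFD mice 0.35, 12, 93 and 0.92 FPKM. At week 24 the CD mice had 19.9, 93.5, 81.3 and 23.1 FPKM, and the HFD mice 53.8, 2.11, 7.13 and 3.35 FPKM. HFD316 and HFD611 reached CD levels and CD308 lay among the HFD mice. The differences of -2.59 at week 12 (adjusted p = 0.29, limma) and -2.34 at week 24 (adjusted p = 0.3) did not pass the test.

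Counted by mouse, with levels chosen after the values were seen, 16 of the 20 HFD mice of weeks 8 to 24 had under 20 FPKM of Hsd3b5, against 2 of the 20 CD mice. Under 1 FPKM were 5 of the 20 HFD mice and 0 of the 20 CD mice. The medians were 5.93 and 94.3 FPKM. The drop was therefore not a uniform shift, since 4 HFD mice kept over 20 FPKM while others were near 0. A contrast of the mean HFD effect in weeks 8 to 24 (-3.4) with that of week 4 (0.81), likewise added after the data were seen, differed by -4.21 (SE 1.192, adjusted p = 0.035, limma), where 1.14% of genes were called lower and 2.79% higher. This call was lost without each of the 8 mice of week 4 and with a pseudocount of 0.1 (adjusted p 0.05 to 0.087). The week 4 mice were other animals than the later ones.

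Slco1a1 encodes a transporter that takes up steroid conjugates and other organic anions, and lies on chromosome 6 (141907281 to 141946962, minus strand, Entrez gene 28248). At week 4 the CD mice had 39.4, 22.3, 18.6 and 55 FPKM and the HFD mice 46.8, 80.5, 77.5 and 52.9 FPKM. At week 8 the CD mice had 109.6, 123, 111.6 and 124 FPKM and the HFD mice 39.4, 54.6, 17.1 and 118.4 FPKM. The HFD mice were on the high side at week 4, overlapping through CD106 (difference 1, adjusted p = 0.27, limma), and at week 8 all but HFD217 were below the CD mice (-1.33, adjusted p = 0.16). At week 20 the CD mice had 58.1, 69.8, 60.3 and 54 FPKM and the HFD mice 17.2, 50.3, 23 and 29.2 FPKM, with no overlap (-1.09, adjusted p = 0.078), which was called without HFD516 (adjusted p = 0.0085). HFD516 was the HFD mouse nearest the CD mice, so the call without it follows from its value and supports nothing.

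In the remaining weeks the mice with extreme Hsd3b5, CD308, HFD316, HFD411 and HFD611, were also at the same end of their own group in Slco1a1. At week 12 the CD mice had 94.2, 66.5, 68.4 and 15.8 FPKM and the HFD mice 7.06, 49.2, 84.8 and 22.2 FPKM. At week 16 the values were 55.9, 119, 64.3 and 77.2 FPKM on CD and 97.2, 20.2, 57.4 and 13.8 FPKM on HFD. At week 24 they were 31.9, 78.4, 98.9 and 32 FPKM on CD and 65, 15, 33.2 and 19.6 FPKM on HFD. The diets overlapped in each of these weeks (-0.8, -1.07 and -0.88, adjusted p 0.56, 0.37 and 0.48, limma). The mean over the weeks stayed called without any 1 mouse (-0.79 to -0.59), but not without week 8, 16, 20 or 24 as a whole.

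At week 8 HFD217 stood apart from the other 3 HFD mice in several members, with 123 FPKM of Hsd3b5 against 1.09 to 6.48, 118.4 FPKM of Slco1a1 against 17.1 to 54.6, and 13 FPKM of Cish against 0.73 to 2.31. It was chosen after the values were seen, for being high in Hsd3b5 and Slco1a1, so larger differences in those genes without it follow from the choice and support nothing. HFD217 was also the highest HFD mouse of that week in Igfals (70.4 FPKM against 34.1 to 56.6). The Igfals call without it, and the number of members called, are therefore no support either. Without it limma called 3 members lower at that week, where 2.08% of genes were lower and 8.87% higher. Hsd3b5 then differed by -5.55 (SE 0.426, adjusted p = 0.00061), Slco1a1 by -1.78 (SE 0.338, adjusted p = 0.015) and Igfals by -0.74 (SE 0.18, adjusted p = 0.036), while Igf1 gave -0.37 (adjusted p = 0.052).

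**Figure D2:**
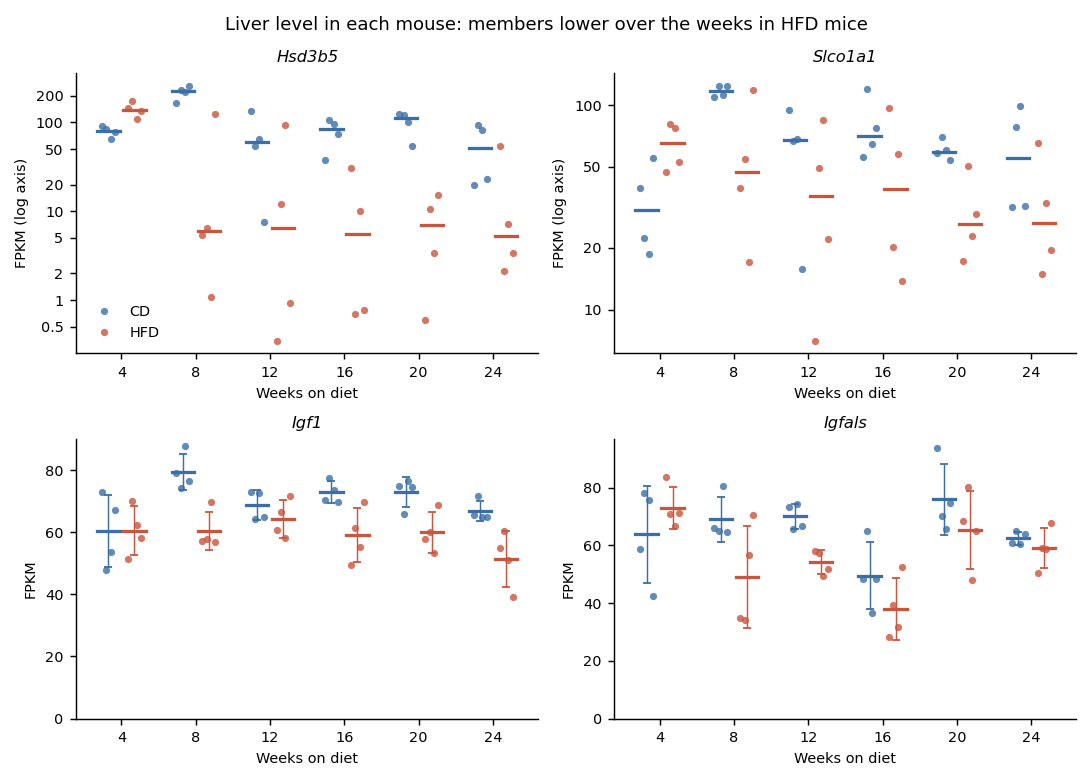
FPKM of Hsd3b5, Slco1a1, Igf1 and Igfals in each of the 48 livers by week of feeding, with points for single mice. Short lines are medians of 4 mice on the log axes of Hsd3b5 and Slco1a1 and means with SD bars for Igf1 and Igfals. The HFD points of Hsd3b5 lie above the CD points at week 4 and mostly below 20 FPKM from week 8, apart from HFD217, HFD316, HFD411 and HFD611.

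Elovl3, a fatty acid elongase gene that is higher in male liver and rises and falls over the day, lies on the plus strand of chromosome 19 (46131899 to 46135694, Entrez gene 12686). Its levels ran from 25.9 to 583 FPKM on CD and from 15 to 257 FPKM on HFD, the widest span in FPKM units among the members. At week 20 the CD mice had 92.1, 45.8, 40.2 and 35.6 FPKM and the HFD mice 34.8, 19.1, 22.7 and 25.6 FPKM. At week 24 the CD mice had 75, 207.8, 428 and 76.1 FPKM and the HFD mice 85.3, 15, 54.5 and 56.2 FPKM. The diets did not overlap at week 20, by a small margin (-0.96, adjusted p = 0.13, limma), and did at week 24 (-1.73, adjusted p = 0.3). In week 12, HFD mice had 32.8, 255, 219 and 111 FPKM and the CD mice 43.6, 111, 41.1 and 25.9 FPKM. The highest 2 values were on HFD, but the diets overlapped (1.31, adjusted p = 0.27, limma). Without week 12 the mean over the weeks was called lower, -0.79 (adjusted p = 0.039). Week 12 was the week with a higher mean on HFD, so a lower mean without it follows from the choice and supports nothing.

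Socs2 and Cish are feedback inhibitors that STAT5 induces within a hormone pulse and that dampen receptor signaling. Socs2 (chromosome 10, 95383903 to 95417253, minus strand, Entrez gene 216233) ranged from 2.97 to 20.6 FPKM on CD (median 6.32) and from 1.44 to 24.6 FPKM on HFD (median 4.75). At week 12 the CD mice had 6.16, 4.63, 10.6 and 10.51 FPKM and the HFD mice 5.12, 3.32, 2.22 and 5.91 FPKM, with overlap (-0.8, adjusted p = 0.12, limma). Its mean over the weeks was called lower only without HFD418 (-0.44, adjusted p = 0.048), which held 16.2 FPKM while the other 3 HFD mice of week 16 held 1.59 to 3.48. A lower mean without that high HFD mouse follows from its value and supports nothing.

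Cish (chromosome 9, 107296659 to 107302784, plus strand, Entrez gene 12700) ranged from 0.74 to 10.48 FPKM on CD (median 3.31) and from 0.51 to 29.1 FPKM on HFD (median 4.17). At week 20 the HFD mice had 1.23, 22, 29.1 and 2.54 FPKM and the CD mice 6.5, 1.44, 2.41 and 2.85 FPKM. The HFD mice were thus on both sides of the CD mice, and the diets overlapped in every week.

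Bcl6, the transcriptional repressor, lies on the minus strand of chromosome 16 (23965050 to 23988612, Entrez gene 12053) and ranged from 1.92 to 25.1 FPKM on CD (median 5.54) and from 2.3 to 25.2 FPKM on HFD (median 7.92). At week 16 the CD mice had 16, 3.04, 3.59 and 2.35 FPKM and the HFD mice 25.2, 24.7, 13.2 and 7.85 FPKM. The HFD mice were on the high side, and CD401 lay among them (difference 1.58, SE 0.603, adjusted p = 0.18, limma). Without CD401 the difference was called at 2.11 (adjusted p = 0.031). CD401 was the CD mouse nearest the HFD mice, so a larger difference without it follows from its value and supports nothing. In the other weeks the diets overlapped, and without week 16 the mean over the weeks was -0.02.

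Bcl6 promoters are shown because the gene holds 4 of the 6 motif matches found, a number that describes the sequence and not its use. The first stretch (chr16:23988853-23989102, minus strand) holds TTCTCAGAA, which ends 110 bases before its start, and lies upstream of the gene. The second (chr16:23981284-23981533, minus strand), in an intron of the longer transcript, holds TTCCTGGAA, TTCTGTGAA and TTCCGGGAA, whose first bases lie 168, 122 and 88 bases before its own start.
Bcl6 promoter 1: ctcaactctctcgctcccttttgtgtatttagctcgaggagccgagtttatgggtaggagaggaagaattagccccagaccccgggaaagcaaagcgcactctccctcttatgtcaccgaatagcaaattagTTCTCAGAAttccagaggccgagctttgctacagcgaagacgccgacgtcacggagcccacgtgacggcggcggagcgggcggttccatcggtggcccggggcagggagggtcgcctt
Bcl6 promoter 2: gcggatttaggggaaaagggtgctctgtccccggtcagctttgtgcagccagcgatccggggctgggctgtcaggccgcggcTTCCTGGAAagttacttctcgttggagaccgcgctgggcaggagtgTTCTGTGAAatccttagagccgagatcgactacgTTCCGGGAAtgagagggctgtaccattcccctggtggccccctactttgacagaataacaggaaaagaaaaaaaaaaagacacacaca
Capitals again mark TTCNNNGAA, and the sequences are RefSeq's in GRCm38.p6.

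**Figure D3:**
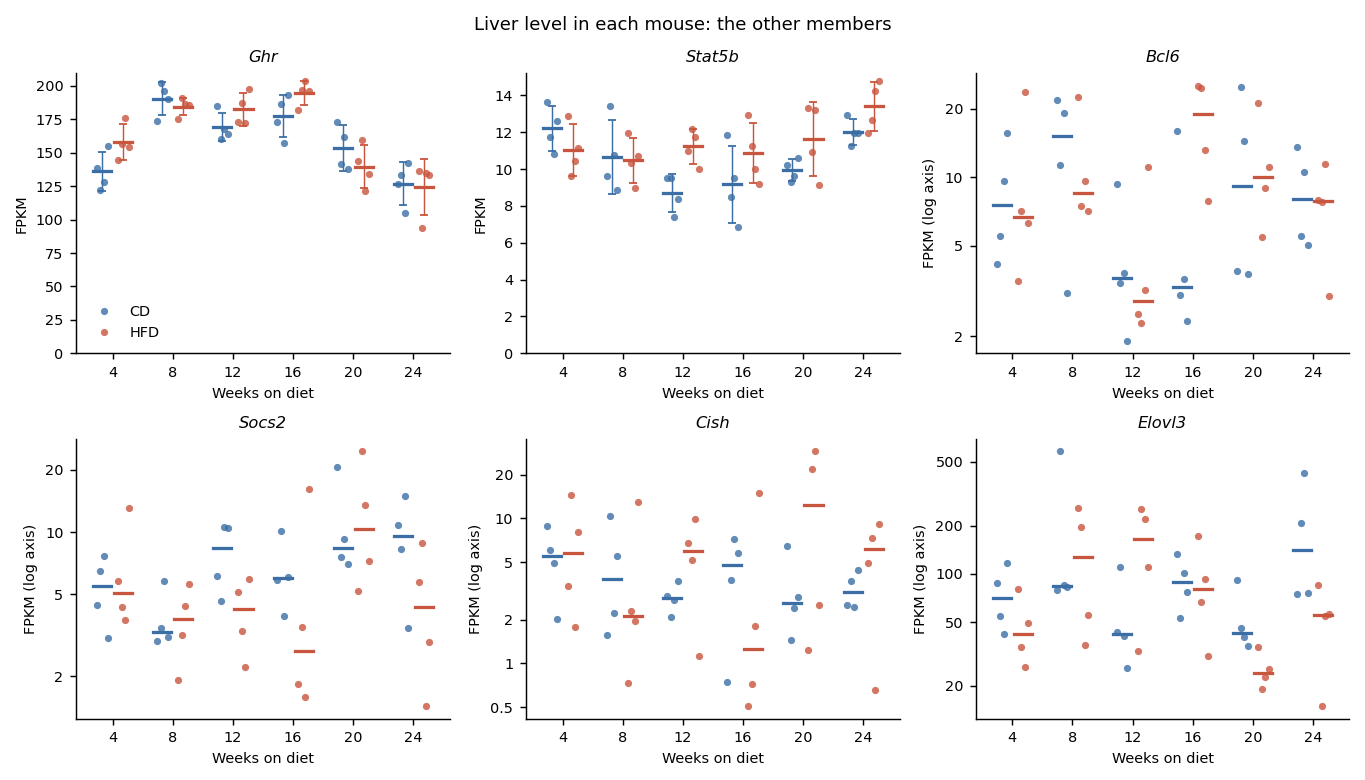
FPKM of Ghr, Stat5b, Elovl3, Socs2, Cish and Bcl6 in each of the 48 livers by week of feeding, with points for single mice. Short lines are means with SD bars for Ghr and Stat5b and medians of 4 mice on the log axes of the others. Ghr and Stat5b vary little within a group of 4, whereas Elovl3, Socs2, Cish and Bcl6 vary several-fold, with 583 FPKM of Elovl3 in CD205.

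The members fell apart in how much mice of the same diet and week differed. The SD within groups in log2(FPKM + 1) was 1.57 for Hsd3b5, a value at the 99.9th percentile of the 10879 genes tested. It was 1.1 for Cish (99.5th), 0.99 for Elovl3 (99.4th), 0.88 for Bcl6 (99.2nd), 0.87 for Slco1a1 (99.2nd) and 0.71 for Socs2 (98.5th). In contrast, Igfals had 0.28 (81.9th), Stat5b 0.18 (45.8th), Igf1 0.16 (37th) and Ghr 0.14 (22nd). The 6 most variable members are thus the feedback inhibitors, the repressor and the sex-biased genes, and the receptor, Stat5b and Igf1 varied less than the median gene. For Hsd3b5 the SD was 0.92 among CD mice and 2.01 among HFD mice, and for Cish 0.72 and 1.37, a difference between diets that was not tested.

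Across the 48 mice, deviations from the mean of each diet and week were compared for all 45 pairs of members, with a two-sided permutation test within groups (100000 resamples) and Benjamini-Hochberg adjustment over the 45. Of these, 7 pairs passed, 5 positive and 2 negative, and 5 passed by rank. Hsd3b5 and Slco1a1 deviated together, with r = 0.9 (adjusted permutation p = 0.00022) and rho = 0.87 (adjusted p = 0.00022), where 1e-05 is the smallest unadjusted p that the permutations can give. The r was 0.86 on CD, 0.92 on HFD and 0.89 without the 2 mice farthest from the median of Hsd3b5. Cish and Bcl6 deviated in opposite directions, with r = -0.68 and rho = -0.68 (each adjusted p = 0.00022), -0.74 on CD, -0.73 on HFD and -0.65 without 2 mice. Mice high in the inhibitor gene were therefore low in the repressor gene in both diets.

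The other pairs were looser. Elovl3 and Slco1a1 gave r = 0.54 (adjusted permutation p = 0.015) and rho = 0.48 (0.044), with 0.51 without 2 mice. Igfals and Socs2 gave r = 0.52 (0.0073) and rho = 0.49 (0.022), with 0.5 without 2 mice. Stat5b and Elovl3 gave r = 0.51 (0.0054) and rho = 0.5 (0.013), with 0.53 without 2 mice. These 3 pairs kept their sign in each diet. Socs2 and Cish passed by r (0.49, adjusted p = 0.046) but not by rank (rho = 0.4, adjusted p = 0.1), and r was 0.09 on CD and 0.36 without 2 mice. Igfals and Elovl3 (r = -0.43, adjusted p = 0.046) also failed by rank (rho = -0.41, adjusted p = 0.091) and after median ratio scaling (r = -0.36, adjusted p = 0.089). Stat5b and Igf1 did not pass (r = -0.38, adjusted p = 0.071), at 0.14 on CD and -0.79 on HFD, but did after median ratio scaling (r = -0.37, adjusted p = 0.034).

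Elovl3 was further set against clock genes after the values had been seen, among 24 pairs of a member with Arntl, Dbp, Nr1d1 or Cyp2b9. Arntl, a core activator of the circadian clock, gave r = 0.73 and rho = 0.73 with Elovl3 (adjusted permutation p 0.00012 and 0.00024), with 0.84 on CD, 0.63 on HFD and 0.65 without 2 mice. Dbp, a clock output gene, gave r = -0.73 and rho = -0.68 (0.00012 and 0.00024), with -0.88 on CD, -0.57 on HFD and -0.66 without 2 mice. Nr1d1, the third clock gene set against Elovl3, did not pass (r = 0.16 and rho = 0.25, adjusted permutation p 0.56 and 0.37), at -0.23 on CD and 0.4 on HFD. The CD mouse with the highest Elovl3 of all, CD205 at 583 FPKM, had 9.25 FPKM of Arntl and 0.43 FPKM of Dbp. Of the 12 clock genes tested for diet, 1 was called by limma, Per2, which was higher (0.41, adjusted p = 0.012). Over all genes 35.8% were called higher and 6.78% lower, so this count is not above that share. Under median ratio scaling none of the 12 was higher and 1 was lower.

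**Figure D4:**
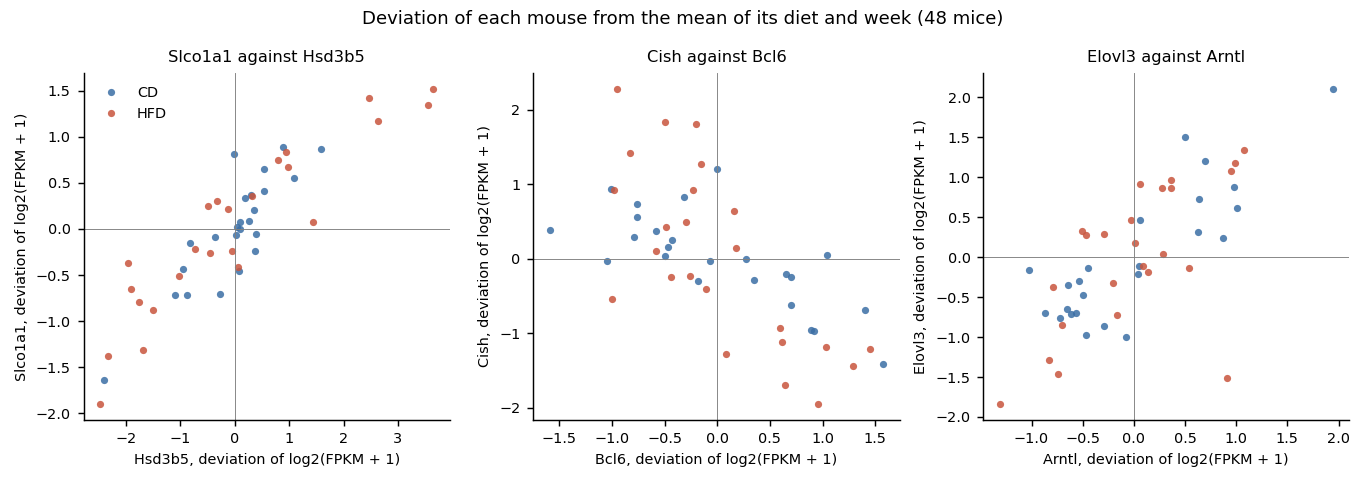
Deviations of single mice from the mean of their diet and week in log2(FPKM + 1) for Slco1a1 against Hsd3b5, Cish against Bcl6 and Elovl3 against Arntl, with each point 1 of the 48 mice, coloured by diet. The first and last pairs rise (r = 0.9 and 0.73) and the second falls (r = -0.68).

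The wider pathway was read from lists of genes. Of 21 tested genes of growth hormone receptor signaling, including 4 of the members, 7 were higher and 1 lower over the weeks, near the 35.8% and 6.78% of all genes, with a median of 0.08, the same as that of all genes. The higher genes included Stat5a, the close relative of Stat5b (0.46, adjusted p = 1.9e-07, limma), the phosphatase genes Ptpn6 (0.32) and Ptpn1 (0.17), the adaptor genes Shc1 (0.14) and Grb2 (0.09), and Stat5b. The lower gene was Prlr, the prolactin receptor (-0.38, adjusted p = 0.012). The kinase gene Jak2 (0.09, adjusted p = 0.16) and the inhibitor gene Socs3 (-0.13, adjusted p = 0.58) did not pass. Median ratio scaling left 3 higher and 2 lower, with Stat5b, Ptpn1, Shc1 and Grb2 no longer called and Sh2b1 called lower.

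Among 10 tested genes of the IGF axis, 3 were higher, a share not above the 35.8% of all genes, and 3 lower, where 6.78% of all genes were. The median was -0.01, against 0.08 for all genes. Igfbp2, an IGF binding protein gene, was lower at 367 FPKM on CD and 183 FPKM on HFD (-1.11, adjusted p = 4.4e-09, limma), together with Igf1 and Igfals. The effect on Igfbp2 differed between weeks (F test of limma, adjusted p = 0.016). It was 0.06 at week 4, -1.83 at week 12 and -0.45 at week 24, the last not called (adjusted p = 0.35). Igfbp3, the partner of IGF1 and the acid-labile subunit in blood, was higher (0.55, adjusted p = 0.00024), as were Igfbp7 (0.52, adjusted p = 4.6e-06) and the receptor gene Igf2r (0.17, adjusted p = 0.0046), the last not under median ratio scaling.

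Of the 21 tested male-biased genes, 13 were lower on HFD, where 6.78% of all genes were, and none higher, where 35.8% were, with a median of -0.61. At an unadjusted p under 0.05 the counts were 14 lower and 1 higher, a cut at which the share of all genes was not computed. The list holds 4 of the members, Hsd3b5, Slco1a1, Elovl3 and Bcl6, and of its 17 other tested genes 11 were lower, also with a median of -0.61. These included Moxd1 (-1.75), Ugt2b38 (-1.32), the epidermal growth factor receptor gene Egfr (-0.62), the bile acid hydroxylase gene Cyp7b1 (-0.57) and Susd4 (-0.71, adjusted p = 7.2e-06, limma), and also Serpina1e (-1.77), Mup1 (-1.31) and Cyp4a12b (-1.17), whose near-identical copies make their counts uncertain. Mup20 (0.17, adjusted p = 0.39), Cyp4a12a (-0.01, 0.95) and Nudt7 (-0.01, 0.96) did not pass. Of 21 tested female-biased genes, 9 were higher, a share not far from the 35.8% of all genes, and 4 were lower, where 6.78% of all genes were (median 0.21). Cyp2b13 and Hao2, each with a CD mean of 0.0292 FPKM, and Cyp2a4, with 0.156 FPKM, passed the filter only through HFD mice. They could therefore enter only as higher. With no filter, 10 of 32 female-biased genes were higher and 8 lower, with a median of 0 against 0.02 for all genes. Cyp2b9 stood at 1.41 FPKM on CD and 66.9 FPKM on HFD (4.21, adjusted p = 1.2e-15), and Cyp2b13 (1.55), Cyp2a4 (1.42), Slc22a27 (1.36) and Abcd2 (1.17) were also higher, with the Cyp2b genes similar in sequence. The effect on Cyp2b9 differed between weeks (F test of limma, adjusted p = 0.0015). Its week 4 means were 0.145 FPKM on CD and 0.715 FPKM on HFD, and the difference was 6.28 at week 8 and 3.26 at week 24. Cyp4a14 was called higher as a mean over weeks (1.19), but its effect differed between weeks (F test of limma, adjusted p = 0.0084), from 5.39 at week 8 to -0.84 at week 16, and its FPKM means were 543 on CD and 539 on HFD. Cyp2c40 (-1.53) and Cyp2c69 (-1.07) of the same list were lower. Among 11 transcriptional regulators, 4 were higher, including Tox (0.53), Foxa1 (0.25) and Nr3c1 (0.14), and none lower, a share near the 35.8% of all genes, and under median ratio scaling 1 was higher and 2 lower. Of the 10 hepatocyte markers, 5 were lower, Cyp3a11 (-1.25), Tat (-0.54), Fgb (-0.4), Cps1 (-0.31) and Ass1 (-0.27), and their part in the lower lists was not tested. The effect on Cps1 differed between weeks (F test of limma, adjusted p = 0.018).

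**Figure D5:**
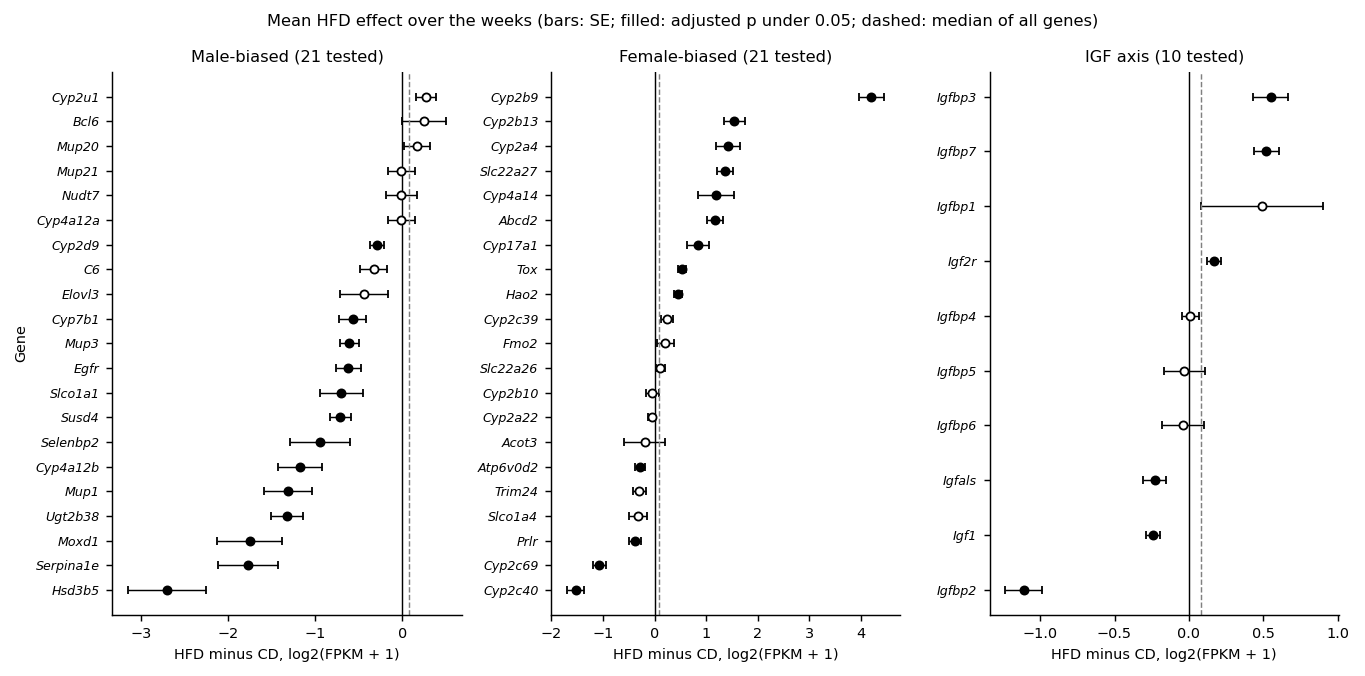
Mean HFD minus CD difference over the 6 weeks in log2(FPKM + 1) for each tested gene of the male-biased, female-biased and IGF axis lists, with points filled where limma called the gene, bars for the standard error and a dashed line at the median of all genes. The male-biased genes have a median of -0.61, the female-biased genes 0.21 and the IGF axis -0.01. With no filter on low values the female-biased median is 0.

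By median FPKM in CD liver, a scale per transcript length, the members ran from Ghr (161) through Hsd3b5 (86.9), Elovl3 (78), Igf1 (72.1), Igfals (65.4) and Slco1a1 (65.4) to Stat5b (10.4), Socs2 (6.32), Bcl6 (5.54) and Cish (3.31). The 5 genes from Hsd3b5 to Slco1a1 overlapped widely among mice, as did the last 4, and single mice had more Hsd3b5 or Elovl3 than Ghr. Slco1a1 and Stat5b were the neighbours without overlap, at 15.8 FPKM or more and at 13.65 FPKM or less. On HFD the median of Hsd3b5 was 8.65 FPKM, of Slco1a1 43.1, of Elovl3 55.1, of Igf1 58.2 and of Igfals 57.7. In islets of the same mice Elovl3, Hsd3b5 and Slco1a1 were listed at no more than 0.3 FPKM in any mouse, and Igf1 had medians of 0.35 FPKM on CD and 0.285 FPKM on HFD. Ghr had islet medians of 62.9 and 62 FPKM, Igfals 20.1 and 21.8, Stat5b 17 and 15.6, Socs2 8.45 and 8.19, Cish 3.56 and 4.36, and Bcl6 2.16 and 1.8. Stat5b, Socs2 and, by a small margin, Cish had higher medians in islet than in liver in each diet, and the other members had higher medians in liver.

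The genes most alike to each member in level over the 48 libraries, among 9981 genes with at least 1 FPKM in 24 or more of them, were named by Pearson's r as a description, since diet, week and library are shared by all genes. For Hsd3b5 they were the major urinary protein genes Mup7 (0.91), Mup12 (0.871) and Mup14 (0.844), which share much of their sequence. For Slco1a1 they were Hsd3b5 (0.815), Mup3 (0.801) and Mup21 (0.767). Ghr was followed by Car3 (0.849), Akr1c13 (0.831) and Hsd3b2 (0.83), and Stat5b by Ap2a2 (0.748), Lrp5 (0.743) and Cnnm3 (0.741). Igf1 was followed by Kin (0.833), Dffb (0.781) and Fnbp4 (0.761), and Igfals by Cyp4f13 (0.777), Fiz1 (0.745) and Trmt1 (0.744). Cish had Phlda1 (0.824), Onecut1 (0.802) and Foxa2 (0.794) nearest, the last 2 being liver transcription factor genes. Elovl3 had Dtx4 (0.773), Mcu (0.761) and Sumo3 (0.751), while Socs2 reached only 0.609 with B4galt1, 0.595 with Tgm1 and 0.551 with Ung, and Bcl6 only 0.573 with Chd2, 0.546 with Zfp236 and 0.536 with Tmcc1.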

How the data were processed

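Liver RNA of 48 mice was sequenced after poly(A) selection and random priming on the BGISEQ-500. Per the labels and the submitters' processing notes, HISAT2 2.0.4, Bowtie2 2.2.5, RSEM 1.1.12, DESeq2 and GRCm38.p5 were used, in no stated role or order. The deposited values are FPKM per gene and library with 2 decimals, and 1835 of 21990 genes had none. The table also holds the authors' group means, test columns (fold changes, p and q values) and module or cluster assignments, which were not used.

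Genes that reached 1 FPKM in 4 or more of 8 libraries were tested each week with limma 3.58.1 (R 4.3.3, trend and robust) on log2(FPKM + 1), with Benjamini-Hochberg adjustment. A fit of all 12 liver groups (same minimum in at least 4 libraries) gave the mean diet effect over weeks, the F test of its difference between weeks and the F test of CD over weeks. The members, gene lists and tests were chosen with earlier results of these data known. Named genes were the members, the genes of the lists and the 3 genes most alike to each member. Groups came from the diet and week in the labels, and replicates are separate mice. On simulated data (200 genes changed by 1.5 in log2), the one-week fit called 96% of them and 14 unchanged genes of 10120 tested, and the mean over weeks 100%. The changed genes were drawn at random and given normal noise. These shares do not carry over to the most variable members, with SDs within groups from 0.71 (Socs2) to 1.57 (Hsd3b5). Promoters were RefSeq's, in GRCm38.p6, with exons from GENCODE. Alternatives were a pseudocount of 0.1, no filter, median ratio scaling, plain limma, 1 fit of all groups for a week, and leaving out each mouse or week. Python 3.11.15 with scipy 1.17.1 was used for permutations.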

Additional observations from a re-analysis of the deposited data

Results flagged for a closer look

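In 120 groups of 4 mice (10 members, 6 weeks, 2 diets), the gap between an extreme mouse and its nearest neighbour, as a share of the group's range, was above Dixon's 95% critical value in 16, of which 15 were on the high side and 1 on the low side. The gap was measured in FPKM and not in logs. Chance flags about 1 in 20 groups of normally distributed values, a rate that need not hold for skewed FPKM. Neither the number of flags nor their side is therefore read as a trait of the mice. Mice of 1 group can appear under several members, which are not independent.

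Among the genes lower on HFD, Hsd3b5 stood high in HFD217 at week 8 (123.31 FPKM, the other 3 at 1.09 to 6.48), in HFD316 at week 12 (92.99) and in HFD611 at week 24 (53.79). Igf1 stood high in HFD213 at week 8 (69.75 FPKM) and in CD605 at week 24 (71.58), and Igfals in CD207 at week 8 (80.53). The 1 low value was Ghr in HFD614 at week 24 (93.36 FPKM, the other 3 at 133 to 136).

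Of the feedback inhibitors, Socs2 stood high in CD207 at week 8 (5.79 FPKM), in HFD418 at week 16 (16.25) and in CD501 at week 20 (20.55), and Cish in HFD217 at week 8 (13.03) and in HFD418 at week 16 (14.88). Bcl6 stood high in HFD211 at week 8 (22.54 FPKM), in HFD318 at week 12 (11.07) and in CD401 at week 16 (15.96). Elovl3 stood high in CD205 at week 8 (583.11 FPKM, the other 3 at 79.1 to 85.5).

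The HFD effect on Hsd3b5 differed between weeks 8 to 24 and week 4 by -4.21 on the log2(FPKM + 1) scale (adjusted p = 0.035, limma), in a contrast chosen after seeing the data. The F test of the diet effect between weeks did not call Hsd3b5 (adjusted p = 0.24, limma). The call of the contrast was lost without each of the mice of week 4 and with the smaller pseudocount. The contrast is therefore given only as a description.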

How the results depend on the processing

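The mean effects of Hsd3b5 (-3.4 to -2.37) and Igf1 (-0.36 to -0.21) kept their direction and call under every alternative run. Median ratio scaling gave -0.08 for Ghr, 0.02 for Stat5b and -0.12 for Igf1 at week 4, the last at -0.09 to 0.11 without single mice. Stat5b was not called with no filter (0.13), without week 12 (0.08), 16 (0.11), 20 (0.11) or 24 (0.12), and spanned 0.11 to 0.15 without single mice. Leaving out a week ended the calls of Igfals (-0.17 without week 8, -0.2 without week 12) and Slco1a1 (-0.57, -0.62, -0.62 and -0.66 without weeks 8, 16, 20 and 24), made Elovl3 called without week 12 (-0.79) and gave -0.02 for Bcl6 without week 16. Socs2 spanned -0.44 to -0.28 without single mice. The cause was not tested, except that fewer mice enter where a week is left out.

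The number of members called was 0 with no filter, 2 in plain limma and 2 in the fit of 12 groups at week 8, 0 in the fit of 12 groups at week 12, 1 at week 16 under median ratio scaling, plain limma or the fit of 12 groups, and 0 at week 20 with a pseudocount of 0.1. Without single mice it was 0 to 3 at week 8, 0 to 2 at week 12, 0 to 1 at weeks 16 and 20, and 2 to 4 for CD over the weeks. Calls among all genes moved too. For week 8 they numbered 329 once CD207 was dropped and 1114 once HFD217 was dropped, against 752 with every mouse. For week 12 dropping CD307 left 201 and dropping CD304 gave 2105, against 1059. The moving member counts are therefore not read as a trait of the members. The number of correlated pairs was 7 under each scaling, with 6 shared. No paired analysis was possible because CD and HFD mice carry different numbers, which are shared only between islet and liver of a mouse. Depth is not in the table, so counting error cannot be separated from the spread of mice.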

Other observations

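The female-biased gene Cyp2b9 and the male-biased gene Hsd3b5 mirrored each other among HFD mice, a relation looked at after the values had been seen. The HFD mouse with the most Hsd3b5 had the least Cyp2b9 of its group in 4 of the 5 weeks from week 8. HFD217 (123 FPKM of Hsd3b5) had 51.3 FPKM of Cyp2b9 where the other 3 had 95.7 to 173, and HFD316 (93 FPKM) had 42 where the others had 103.7 to 167. HFD411 (30.6 FPKM) had 36.8 where the others had 57.2 to 128, and HFD611 (53.8 FPKM) had 6.49 where the others had 44.6 to 55.1. The exception was HFD518 at week 20 (15.3 FPKM), with 47 FPKM of Cyp2b9 inside the range of its group. Over the 48 mice the deviations from group means gave r = -0.51 (adjusted permutation p = 0.02 over 24 pairs) and rho = -0.43 (adjusted p = 0.11), with 0.12 on CD, -0.8 on HFD and -0.44 without 2 mice. The relation thus passed by r and not by rank, and the difference between the diets was not tested. Slco1a1 gave r = -0.43 (adjusted p = 0.06) with Cyp2b9.

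CD308, the CD mouse with the least Hsd3b5 (7.5 FPKM) and Slco1a1 (15.8 FPKM), had the most Cux2 of the 48 livers, 3.01 FPKM, where the next mice had 1.41 (CD505) and 1.15 FPKM (CD507), and it had 0.58 FPKM of Cyp2b9. The mouse was picked after its values were seen. The next mice, CD505 and CD507, had 102 and 53.8 FPKM of Hsd3b5, where the other CD mice of week 20 had 126 and 123 FPKM. A relation between Cux2 and Hsd3b5 was not tested. The Cux2 means of 24 mice were 0.354 FPKM on CD and 0.0779 FPKM on HFD, and the gene did not pass the filter on low values (-0.24, adjusted p = 0.047 by limma with no filter). Cux2 encodes a repressor that is higher in female mouse liver.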
